A study of Mus musculus with 4 samples.

Results

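The genes described here encode the proteins of the cytoplasmic ribosome. They were taken by symbol: Rpl or Rps followed by a digit, plus Rplp0, Rplp1, Rplp2 and Rpsa, without symbols containing -ps and without the Rps6k kinases. Of the 33696 genes in the deposited matrices, 87 met that rule, and 86 had at least 1 UMI in a kept barcode (Rpl10l had none in either library). They comprise 43 proteins of the large subunit, 31 of the small subunit and the 3 acidic proteins of the stalk (Rplp0, Rplp1, Rplp2). A further 9 are paralogs, such as Rpl22l1 and Rps27l, and Rps19bp1 meets the letter of the rule but encodes a nuclear binding partner of a ribosomal protein. A UMI is a molecular tag that counts 1 captured transcript. The samples were CD4+CCR7+ thymocytes sorted from mouse thymus, as 1 droplet library from Cd4Cre mice (called WT) and 1 from Cd4Cre Cgasfl/fl mice (called Cgas KO), so both groups carry the Cre transgene. Cd4-driven Cre acts in thymocytes from the stage at which Cd4 is first transcribed, and CD8 T cells descend from the same precursors. How old the mice were, their sex and how many entered each library are not given in the labels.

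A ribosome holds 1 copy of nearly every one of these proteins, so their mRNAs are made in near-balanced amounts and are among the most abundant in a lymphocyte. The mRNAs typically begin with a run of pyrimidines, through which mTOR signalling adjusts their translation together. In the thymus, cells that leave the double-positive stage shut off Rag1, pass positive selection, gain CCR7 and move to the medulla. The most mature of them switch on S1pr1, the receptor that guides exit to the blood, and a minority become Foxp3+ regulatory T cells.

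A pyrimidine run was looked for in the RefSeq promoter windows (build GRCm38.p6), which matched 67 of the 87 symbols. A run of at least 8 letters, each C or T, on the transcribed sense strand within 30 bases either side of the annotated start was present in 37 of these 67 genes, or 55.2%. The share was 26.0% of all 27025 genes in the table and 25.6% of the 17491 protein-coding ones. The same search on the opposite strand found a run in 9 of the 67, or 13.4%, against 29.2% of all genes. The 57 matched genes other than paralogs and Rps19bp1 had a longest run of 9 letters at the median, and the 10 others a run of 6 letters, equal to the median of all genes. The letters CTTCCGG, on either strand and over the whole window from 250 before to 50 after the start, were present in 38.8% of the 67 and in 9.93% of all genes. The annotated start can lie several bases from the one that thymocytes use, so a match or its lack says only which letters are in the window.

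Of these windows, 8 are printed below as 46 bases, from 30 before the start to 15 after it, because the results turn on these genes. Rps15a and Rps27 were among the most raised in mature cells, Rpl13a and Rpl38 lay at opposite ends of the comparison of genotypes, and the last 4 departed from the rest in at least 1 state. Capitals mark the longest run of C or T, or the first of equal ones (Rps27l has a second run of the same length just after it).
Rps15a (chr7:118116132-118116177, minus strand): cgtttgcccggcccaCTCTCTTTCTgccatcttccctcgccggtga
Rps27 (chr3:90213633-90213678, minus strand): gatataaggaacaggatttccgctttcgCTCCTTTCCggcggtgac
Rpl13a (chr7:45128730-45128775, minus strand): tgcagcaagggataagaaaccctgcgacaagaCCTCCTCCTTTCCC
Rpl38 (chr11:114668550-114668595, plus strand): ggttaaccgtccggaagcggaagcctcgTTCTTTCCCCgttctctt
Rpl22l1 (chr3:28805478-28805523, plus strand): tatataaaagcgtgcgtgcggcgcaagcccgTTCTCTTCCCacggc
Rps27l (chr9:66946056-66946101, plus strand): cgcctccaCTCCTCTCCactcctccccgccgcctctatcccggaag
Rpl7l1 (chr17:46782641-46782686, minus strand): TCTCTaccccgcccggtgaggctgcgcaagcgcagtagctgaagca
Rps19bp1 (chr15:80264291-80264336, minus strand): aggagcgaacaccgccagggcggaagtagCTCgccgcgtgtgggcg
Rps15a, Rps27, Rpl13a and Rpl38 have runs of 10, 9, 14 and 10 letters. Rpl22l1 and Rps27l have runs of 10 and 9, while Rpl7l1 and Rps19bp1 have runs of only 5 and 3 letters.

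The libraries kept 12929 WT and 14381 Cgas KO barcodes with at least 2000 UMIs, at least 500 genes and at most 10% mitochondrial UMIs, holding 75001049 and 75605391 UMIs. The median barcode had 4943 and 4507 UMIs. The libraries shared 276 kept barcode sequences, 2.13% and 1.92% of each. Cgas itself was sparse, with 337 UMIs (4.49 CPM, UMIs scaled to the same total in each sum) in WT and 221 UMIs (2.92 CPM) in Cgas KO, and a 3′ tag may lie outside the deleted part, so it does not check the label. Cd4 was at 256 and 261 CPM, and Ccr7, which encodes the receptor used in the sort, at 617 and 721 CPM. Each barcode was given 1 of 7 states from UMIs of marker genes, and 870 and 1048 barcodes stayed without one. The Cd8 lineage state (Cd8a and Cd8b1 detected, Cd4 not) goes against the CD4+ sort and held 7.97% and 6.50% of barcodes. In 6 states each of the 5 to 8 further markers checked lay above the median of the states, in both libraries. Itm2a+ S1pr1- passed for only 2 and 3 of 6, so it is named by its rule, and it serves as the reference because it holds the most barcodes (4314 and 5000). The 13 markers of dendritic, myeloid, B, epithelial and red cells summed to between 129 and 261 CPM in the WT states and between 155 and 239.8 CPM in 6 Cgas KO states, but to 353 CPM in S1pr1+ of Cgas KO. The highest were Cst3 (93.2 and 89.4 CPM over all barcodes), Cd74 (73.4 and 65.5 CPM) and the red cell gene Hbb-bs (1.45 and 54.8 CPM), and Siglech, which marks plasmacytoid dendritic cells, was at 0.

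Ribosomal protein transcripts made up a large part of all UMIs, and their share differed between states. It was lowest in Rag1+ barcodes, at 17.7% of UMIs in WT and 17.8% in Cgas KO. It was high in S1pr1+ barcodes, at 24.8% and 24.7%, and in Foxp3+ barcodes, at 24.5% and 24.4%. The reference state lay between them at 22.7% and 22.9%. Nr4a1/Egr-high barcodes, which carry the early response genes of antigen receptor signalling, were at 21.2% and 21.4%, cycling barcodes at 21.0% and 20.7%, and barcodes of the Cd8 lineage at 20.3% and 20.8%. S1pr1+ and Foxp3+ differed by less than 1 percentage point in each library, as did cycling and Nr4a1/Egr-high, and cycling and the Cd8 lineage stood in opposite order in the 2 libraries, so these pairs are not ranked. Single barcodes varied more widely than the states: in the reference state the quartiles were 19.7% and 25.2% in WT, and 19.7% and 25.3% in Cgas KO. In Rag1+ the upper quartile was 18.6% and 19.3%, below the lower quartile of the reference in each library.

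Depth moved with the Rag1+ value. The median Rag1+ barcode held 3097 UMIs in WT and 3071 in Cgas KO, against 5026 and 4495 in the reference state, and its ribosomal protein share was 14.6% and 14.9%, below that of the summed UMIs. Among barcodes with 2000 to 4000 UMIs the median share was 12.5% and 12.8% in Rag1+, against 20.3% and 21.0% in the reference. Among those with 4000 to 8000 UMIs it was 18.5% and 19.4%, against 22.9% and 23.5%. In the 45 WT barcodes of Rag1+ with more UMIs than that it was 21.6%, against 23.2% in the WT reference, so the gap was smaller at each higher depth. Values of other states also differed by depth. In S1pr1+ the median was 26.0% and 25.7% at 4000 to 8000 UMIs and 24.2% and 24.3% at 8000 or more. In Foxp3+ it was 24.9% and 25.2%, then 24.1% and 25.5%. In the Cd8 lineage it was 20.4% and 21.4%, then 21.9% and 23.8%. The reference was at 23.2% and 23.8% at 8000 UMIs or more. The part of depth in these differences was not tested beyond these strata.

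A small set of barcodes held almost no ribosomal protein mRNA. Shares under 5% occurred in 301 WT barcodes (2.33%) and 124 Cgas KO barcodes (0.862%), with a median share of 1.40% in each library. They had 2786 and 2606 UMIs at the median. A TCR beta chain was missing in 72.8% and 75.8% of them, against 6.42% and 6.47% of the other barcodes. Malat1, a nuclear RNA, took 1.47% and 1.63% of their UMIs, against 0.616% and 0.745% of the others, and mitochondrial transcripts took 1.41% and 1.58%, against 0.993% and 0.999%. WT therefore held more of these barcodes than Cgas KO, and S1pr1+ alone had 106 of the 301 in WT and 28 of the 124 in Cgas KO.

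Against the reference state, edgeR's quasi-likelihood test on UMIs summed per state and library (14 sums, library as a term, Benjamini-Hochberg adjustment over all genes) covered 83 of the 87 members. Rpl39l, Rps23rg1, Rpl3l and Rpl10l were too sparse. A gene was called at an adjusted p of at most 0.05, and fold changes are relative to TMM scaling. Each SE was derived from the test, as the absolute log2 fold change divided by the square root of its F statistic. The test rests on 2 libraries of different genotype and on barcodes chosen by marker UMIs, so its p-values measure the spread between these sums only.

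In S1pr1+ barcodes, the most mature conventional cells by marker, the mRNAs of most ribosomal protein genes rose relative to other genes. By edgeR 71 of 83 members were higher and 5 lower, where 21.1% of the 12706 genes tested were higher and 20% lower. The median log2 fold change was 0.20, against -0.01 for all genes, and it was 0.22 in WT alone and 0.19 in Cgas KO alone. Of the large subunit 40 of 43 rose, of the small subunit 26 of 31, and all 3 stalk genes. Without TMM factors 57 were higher and 9 lower, and without the library term 45 and 2. The part of the markers of other cells, which summed to 129 CPM here in WT and 353 CPM in Cgas KO, was not tested, and the median was above 0 in each library.

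The strongest rises in S1pr1+ barcodes were in the small subunit. Rps24, one of the genes mutated in Diamond-Blackfan anaemia, was at 6596 (WT) and 6739.6 (Cgas KO) CPM in the reference and 8178 (WT) and 8112 (Cgas KO) CPM in S1pr1+. Its log2 fold change was 0.38 (SE 0.025, edgeR adjusted p = 8.2e-14). Rps15a rose from 4659.9 (WT) and 4691 (Cgas KO) CPM to 5727 (WT) and 5682 (Cgas KO) CPM (log2 fold change 0.37, SE 0.025, edgeR adjusted p = 7.63e-14). Both S1pr1+ values of each gene lay above both reference values. Rps27, a zinc-finger protein at the surface of the small subunit, rose from 2655 (WT) and 2899.8 (Cgas KO) CPM to 3285 (WT) and 3437 (Cgas KO) CPM (log2 fold change 0.36, SE 0.026, edgeR adjusted p = 5.91e-13). For Rps27 the libraries also differed from each other, and the rise was seen within each.

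The 5 members that fell in S1pr1+ barcodes are mostly not core ribosomal proteins of ordinary length. Rps19bp1 fell from 24.4 (WT) and 25.4 (Cgas KO) CPM to 16.9 (WT) and 18.9 (Cgas KO) CPM (log2 fold change -0.39, SE 0.077, edgeR adjusted p = 0.000105). Rpl7l1, a paralog of Rpl7 that acts in assembly of the large subunit, fell from 69.8 (WT) and 70.0 (Cgas KO) CPM to 57.8 (WT) and 56.6 (Cgas KO) CPM (log2 fold change -0.20, SE 0.044, edgeR adjusted p = 0.000413). Rps27l, a paralog of Rps27 known as a p53 target, fell from 76.3 (WT) and 74.3 (Cgas KO) CPM to 64.1 (WT) and 60.0 (Cgas KO) CPM (log2 fold change -0.19, SE 0.052, edgeR adjusted p = 0.00344). In each of these the S1pr1+ values lay below the reference values in both libraries. The other 2 were Rpl41, which encodes the smallest ribosomal protein (log2 fold change -0.12, SE 0.026, edgeR adjusted p = 0.000197), and Rps12 (log2 fold change -0.10, SE 0.024, edgeR adjusted p = 0.0015), both named after their values were seen.

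In Foxp3+ barcodes most members were raised as well. By edgeR 60 of 83 were higher and 5 lower, against 15.8% and 12.3% of all genes, with a median log2 fold change of 0.17 (0.19 in WT and 0.15 in Cgas KO) and -0.02 for all genes. Without TMM factors the counts were 45 and 9. The Foxp3 gate is read before that of S1pr1, so Foxp3+ barcodes can also carry S1pr1. Here the 8 further markers checked for S1pr1+ summed to 4229 and 4176 CPM, against 2323 and 2396 CPM in the reference. Their part in the result was not tested. Rps15a was at 6831 (WT) and 6686 (Cgas KO) CPM, the highest of the 7 states in both libraries, which gave the largest rise of all members (log2 fold change 0.61, SE 0.026, edgeR adjusted p = 2.57e-18). Rps27l, lower in S1pr1+, was higher here, at 106 (WT) and 101 (Cgas KO) CPM (log2 fold change 0.55, SE 0.092, edgeR adjusted p = 2.09e-05). Rpl24, which bridges the subunits, was at 2463 (WT) and 2483 (Cgas KO) CPM, against 1912 (WT) and 1959.7 (Cgas KO) CPM in the reference (log2 fold change 0.43, SE 0.028, edgeR adjusted p = 5.74e-14). The 2 states share their reference, so their difference from each other was not tested.

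The 5 members lower in Foxp3+ barcodes were Rps19bp1, Rpl7l1, Rpl22l1, Rplp1 and Rpsa. Rps19bp1 was at 15.7 (WT) and 19.8 (Cgas KO) CPM (log2 fold change -0.43, SE 0.16, edgeR adjusted p = 0.0384) and Rpl7l1 at 51.7 (WT) and 58.7 (Cgas KO) CPM (log2 fold change -0.28, SE 0.093, edgeR adjusted p = 0.0249). Rpl22l1, the paralog that Rpl22 represses, was at 769.7 (WT) and 825 (Cgas KO) CPM, against 917 (WT) and 947 (Cgas KO) CPM in the reference (log2 fold change -0.15, SE 0.037, edgeR adjusted p = 0.00224). Of the stalk, Rplp1 fell (log2 fold change -0.14, SE 0.026, edgeR adjusted p = 0.000139) and Rplp2 rose. Rpsa, the small subunit protein also known as the laminin receptor, was at 5214 (WT) and 5136 (Cgas KO) CPM, against 5997 (WT) and 5851 (Cgas KO) CPM (log2 fold change -0.12, SE 0.025, edgeR adjusted p = 0.000561).

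**Figure D1:**
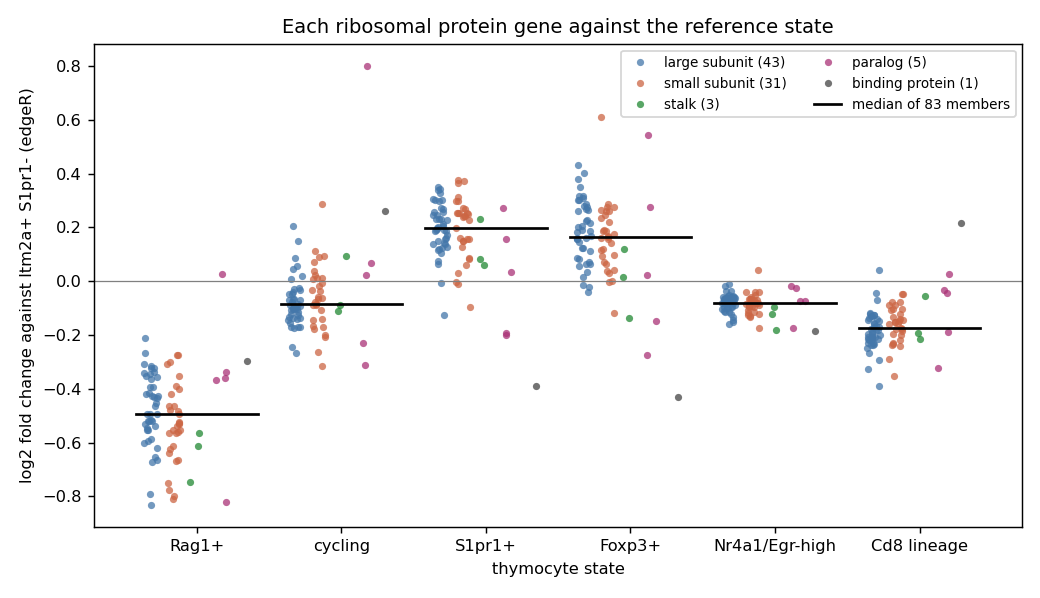
Log2 fold change of each tested ribosomal protein gene against Itm2a+ S1pr1- barcodes (vertical axis, edgeR over both libraries) in 6 states (horizontal axis). Each point is 1 of 83 genes, coloured by role, and black lines are medians: -0.49 in Rag1+, 0.20 in S1pr1+ and 0.17 in Foxp3+.

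Rag1+ barcodes, the earliest stage by marker, showed the reverse. By edgeR 81 of 83 members were lower, against 17.9% of all genes, and none was higher, against 16.6%. At an unadjusted p under 0.05 none was higher either, and DESeq2 called 80 lower and none higher. The median log2 fold change was -0.49, or 0.710-fold, and the per-library medians were -0.46 in each. Per-library medians, here and in the other states, came from separate fits with their own TMM factors. They therefore need not lie on either side of the median over both libraries. All 43 large subunit, 31 small subunit and 3 stalk genes fell. With barcodes of at least 4000 UMIs the median shrank to -0.27, with 78 members lower, and without TMM factors it was -0.35 while the median of all genes moved from -0.03 to 0.11.

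The falls in Rag1+ barcodes spanned a wide range. Rpl36a, a large subunit protein, was at 858 (WT) and 838 (Cgas KO) CPM, against 1314 (WT) and 1430.1 (Cgas KO) CPM in the reference (log2 fold change -0.83, SE 0.038, edgeR adjusted p = 4.52e-18). Rpl22l1 was at 546 (WT) and 626 (Cgas KO) CPM (log2 fold change -0.82, SE 0.041, edgeR adjusted p = 6.23e-17). Rpsa was at 3783 (WT) and 3677 (Cgas KO) CPM (log2 fold change -0.81, SE 0.026, edgeR adjusted p = 1.09e-21). These 3 were at 0.562, 0.566 and 0.570-fold of the reference, and neither library of one state reached into the range of the other. Among the smallest falls were those of Rpl24 (log2 fold change -0.21, SE 0.030, edgeR adjusted p = 8.44e-07) and Rpl11 (log2 fold change -0.27, SE 0.028, edgeR adjusted p = 2.31e-09). Rpl11 joins Rpl5 and the 5S RNA in the particle that restrains the p53 ligase Mdm2. The 2 members not called were Rps27l, at 80.0 (WT) and 91.0 (Cgas KO) CPM (log2 fold change 0.03, SE 0.11, edgeR adjusted p = 0.884), and Rps19bp1, at 22.5 (WT) and 21.9 (Cgas KO) CPM (log2 fold change -0.30, SE 0.16, edgeR adjusted p = 0.15).

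In cycling barcodes more members were lower than higher. By edgeR 13 members were higher and 50 lower, against 26.8% and 29.2% of all genes, and the median log2 fold change of -0.08 was close to the -0.04 of all genes. The share of members that were higher was below the background and is not a result about them. It was 6 without TMM factors (60 lower), 4 without the library term (19 lower), 6 with at least 4000 UMIs, and 4 when the gates were read after thinning every barcode to 2000 UMIs. Cycling barcodes were the deepest, with 10090 and 8995 UMIs at the median, and their marker rule counts detected genes.

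The rise of Rps27l in cycling barcodes was the largest of any member over the 6 contrasts. It was at 123 (WT) and 131 (Cgas KO) CPM, against 76.3 (WT) and 74.3 (Cgas KO) CPM in the reference (log2 fold change 0.80, SE 0.048, edgeR adjusted p = 2.05e-15). Rps19bp1 was at 28.5 (WT) and 29.4 (Cgas KO) CPM (log2 fold change 0.26, SE 0.074, edgeR adjusted p = 0.00317). In both genes the cycling values of both libraries were above both reference values. The lowest were Rps9 of the decoding region, from 5199 (WT) and 5083 (Cgas KO) CPM to 4138 (WT) and 3885 (Cgas KO) CPM (log2 fold change -0.31, SE 0.025, edgeR adjusted p = 1.54e-12), the Rps27 copy Rps27rt (log2 fold change -0.31, SE 0.066, edgeR adjusted p = 0.00016), and Rpl30 (log2 fold change -0.27, SE 0.025, edgeR adjusted p = 7.2e-11).

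In Nr4a1/Egr-high barcodes the change was small and one-sided. By edgeR 43 members were lower, against 3.54% of all genes, and none higher, against 7.41%. Unadjusted, 68 were lower and none higher, and DESeq2 called 42 and none. The median log2 fold change was -0.08 (-0.08 in each library). The call rested on the library term: without it none was lower, with at least 4000 UMIs 14 were, with exactly 1 beta chain 24, and without TMM factors 65. Rplp1 was at 3763 (WT) and 3418 (Cgas KO) CPM, against 4273 (WT) and 3951 (Cgas KO) CPM (log2 fold change -0.18, SE 0.025, edgeR adjusted p = 1.97e-06). Rps12 (log2 fold change -0.18, SE 0.025, edgeR adjusted p = 3.33e-06) and Rpl23a, which lies at the exit of the peptide tunnel (log2 fold change -0.16, SE 0.029, edgeR adjusted p = 0.000186), followed. The smallest called falls were in Rpl28, Rpl29 and Rpl23, at log2 fold changes of -0.08, -0.08 and -0.07 (edgeR adjusted p = 0.0304, 0.0478 and 0.047).

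Most members were lower in barcodes of the Cd8 lineage. By edgeR 73 of 83 were lower, against 12.1% of all genes, and none higher, against 12.0%. Unadjusted, 74 were lower and 1 higher, and DESeq2 called 72 and none. The median log2 fold change was -0.17 (-0.17 in WT and -0.16 in Cgas KO). Without the library term 37 were lower. In these barcodes the 7 further markers checked for Rag1+ summed to 849 and 847 CPM, against 475 and 485 CPM in the reference, and the 8 for S1pr1+ to 2040.3 and 1955 CPM, against 2323 and 2396 CPM. Their part in the result was not tested. Rpl29, a basic large subunit protein, was at 1999 (WT) and 2012 (Cgas KO) CPM, against 2589 (WT) and 2555 (Cgas KO) CPM in the reference (log2 fold change -0.39, SE 0.026, edgeR adjusted p = 2.98e-13), and in the other 6 states its values ran from 2014 to 2820 CPM. Rpsa was at 4767 (WT) and 4704 (Cgas KO) CPM (log2 fold change -0.35, SE 0.024, edgeR adjusted p = 4.41e-13) and Rpl23, which can bind Mdm2, at 3187 (WT) and 3184 (Cgas KO) CPM (log2 fold change -0.33, SE 0.025, edgeR adjusted p = 5.1e-12). Among the smallest called falls were those of Rps2 and Rpl11, at log2 fold changes of -0.08 and -0.07 (edgeR adjusted p = 0.0183 and 0.0373).

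Each member was also measured as a share of all ribosomal protein UMIs. The SD of the log2 share over the 7 states, averaged over libraries, was 0.42 for Rps27l, 0.42 for Rps19bp1, 0.26 for Rpl7l1 and 0.20 for Rpl41. It was 0.02 for Rpl9, 0.03 for Rps23, 0.03 for Rpl22, 0.04 for Rpl35 and 0.04 for Rps21, and the middle one of the 83 members had an SD of 0.08. Rpl9 ranged from 31.7 to 33.9 per 10000 ribosomal protein UMIs over the 14 sums, whereas Rps27l ranged from 2.43 to 6.33. Rpl9-ps6, a -ps symbol left out by the rule, held 410 and 405 UMIs per 100 Rpl9 UMIs in cycling. In S1pr1+ it held 462 and 467. Reads of the 2 genes can be exchanged in counting, so the steadiness of Rpl9 is uncertain. Both extremes of Rps27l were the same states in each library, cycling the highest and S1pr1+ the lowest. Rpl41 was highest in the Cd8 lineage, at 48.4 and 53.6 per 10000, and lowest in S1pr1+, at 32.9 and 36.6. The balance between subunits barely moved: the small subunit took 48.5% and 48.8% of these UMIs in the reference, 47.6% and 47.8% in Rag1+, and 48.5% and 48.8% in S1pr1+. The stalk genes ranged from 4.99% in Foxp3+ of Cgas KO to 6.03% in cycling of WT.

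**Figure D2:**
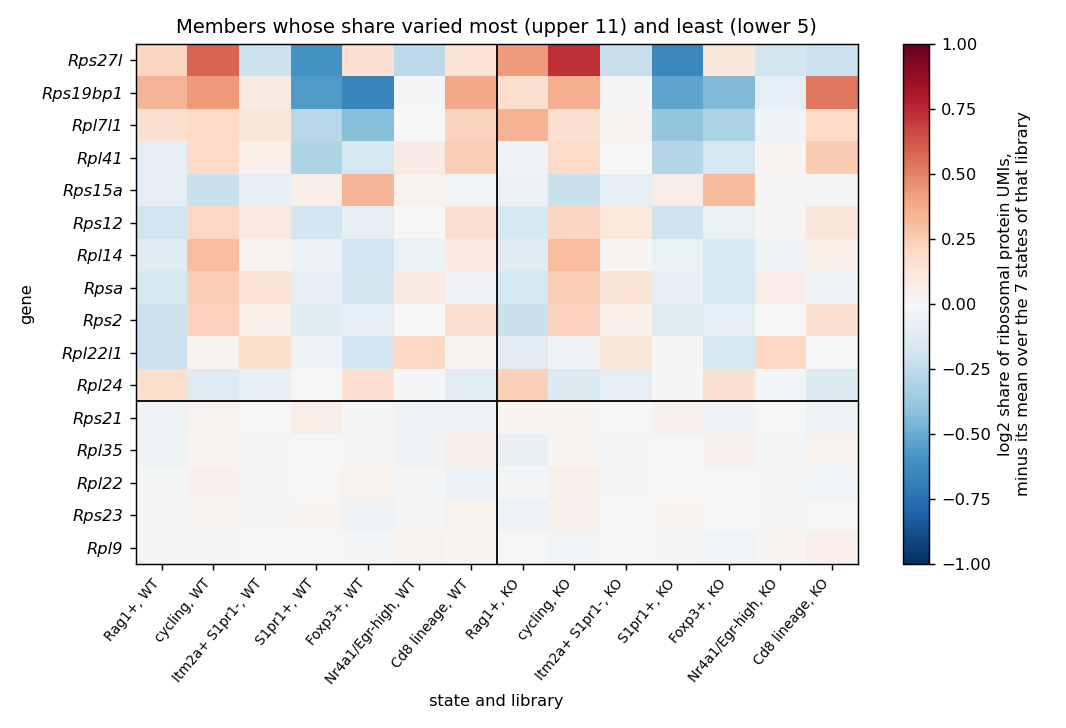
Share of each gene among ribosomal protein UMIs, as log2 minus its mean over the 7 states of the same library (colour), for 11 of the 12 genes that varied most and the 5 that varied least (rows) in each state and library (columns). Rps27l is highest in cycling and lowest in S1pr1+ barcodes of both libraries, while the row of Rpl9 stays near 0.

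Paralog pairs shifted their balance between states. Rpl22 has a role in the survival of developing alpha-beta T cells, and Rpl22l1 can take its place in the ribosome. There were 54.9 Rpl22l1 UMIs per 100 Rpl22 UMIs in the WT reference (95% interval 54.0 to 55.9) and 55.2 in Cgas KO (54.3 to 56.1). The ratio was highest in Nr4a1/Egr-high barcodes, at 57.6 (55.7 to 59.6) and 59.5 (57.6 to 61.4). It was lowest in Foxp3+ barcodes, at 42.1 (40.0 to 44.4) and 45.3 (42.5 to 48.3), and in Rag1+ barcodes, at 43.0 (40.0 to 46.2) and 47.9 (44.2 to 51.8). The last 2 overlap within counting error, and both lie below the reference in each library. In Cgas KO the Rag1+ interval also overlaps those of cycling (47.1 to 49.2), S1pr1+ (49.7 to 51.5) and the Cd8 lineage (49.7 to 54.0). The Foxp3+ interval of Cgas KO overlaps that of cycling. In WT the Nr4a1/Egr-high interval overlaps that of the reference. All such exact intervals, and those between genotypes, cover counting error only.

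Rps27l was at 5.63 per 100 Rps27 UMIs in cycling WT barcodes and 5.72 in Cgas KO, against 1.95 and 1.75 in S1pr1+. Rpl36al was at 67.3 and 72.3 per 100 Rpl36a UMIs in Rag1+, above its 48.3 to 55.5 in the 6 other states. Rpl7l1 was at 2.51 and 2.75 per 100 Rpl7 UMIs in S1pr1+ and at 3.64 and 4.35 in the Cd8 lineage. Rpl39l, known from male germ cells, had 63 and 71 UMIs in all, or 0.0287 and 0.0288 per 100 Rpl39 UMIs. Members with near-identical copies, including Rps27rt beside Rps27, are uncertain, because reads that fit 2 genes may be split or dropped in counting.

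Genes that work with these proteins did not all move with them. The background for the counts of these lists is the share of all genes given for each state above. Fau and Rack1, ribosomal proteins with other symbols, followed the members: both rose in S1pr1+ barcodes and both fell in Rag1+ barcodes by edgeR. Fau, which encodes a small subunit protein fused to a ubiquitin-like one, had a log2 fold change of 0.34 in S1pr1+ (SE 0.024, edgeR adjusted p = 4.15e-13) and -0.25 in Rag1+ (SE 0.027, edgeR adjusted p = 4.15e-09). Of 7 elongation factors, 4 were higher and 2 lower in S1pr1+, and all 7 were lower in Rag1+. Eef1a1, which delivers aminoacyl-tRNA, fell in Rag1+ from 9396 and 9070.4 CPM to 6621 and 6402 CPM (log2 fold change -0.65, SE 0.027, edgeR adjusted p = 4.83e-19).

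The genes that build ribosomes went the other way in mature cells. Of 32 ribosome biogenesis genes, 25 were lower in S1pr1+ (median log2 fold change -0.27) and 25 lower in Foxp3+ (median -0.43). None was higher in either by edgeR, by DESeq2, or at an unadjusted p under 0.05. Rrs1, a nucleolar assembly factor, was at 37.1 and 39.5 CPM in the reference, 24.99 and 26.3 CPM in S1pr1+ (log2 fold change -0.49, SE 0.070, edgeR adjusted p = 8.21e-07) and 17.6 and 19.8 CPM in Foxp3+ (-0.97, SE 0.15, edgeR adjusted p = 5.04e-06). In cycling barcodes 13 biogenesis genes were higher and 3 lower, with a median of 0.08. Nop58 and Nop56, core proteins of the particles that methylate ribosomal RNA, had log2 fold changes of 0.63 (SE 0.038, edgeR adjusted p = 2.86e-15) and 0.57 (SE 0.040, edgeR adjusted p = 1.34e-13). In Rag1+ 28 were lower and 1, Wdr12, was higher, from 42.1 and 47.0 to 145 and 116 CPM (log2 fold change 1.44, SE 0.11, edgeR adjusted p = 8.06e-13).

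The proteins of the mitochondrial ribosome, a separate machine with nuclear genes, are given for comparison. Of 78 (a list set up after values were seen), 46 were higher and 4 lower in cycling barcodes (median 0.18), against 26.8% and 29.2% of all genes. In S1pr1+ 1 was higher and 34 lower (median -0.13), against 21.1% and 20% of all genes. In Foxp3+ 1 was higher and 17 lower (median -0.13), against 15.8% and 12.3% of all genes. In cycling, S1pr1+, Foxp3+ and the Cd8 lineage the plot of list medians shows the mitochondrial and cytoplasmic sets on opposite sides of 0. In Rag1+ 3 were higher and 27 lower (median -0.19), the direction of the cytoplasmic genes. In the Cd8 lineage 8 were higher and 3 lower (median 0.06), both below the 12.0% and 12.1% of all genes.

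**Figure D3:**
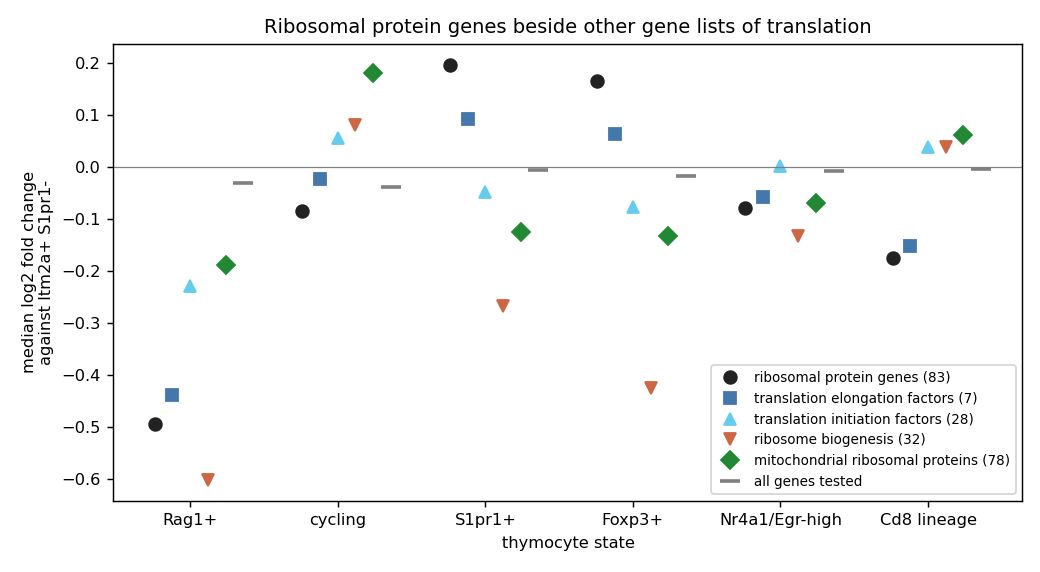
Median log2 fold change against Itm2a+ S1pr1- barcodes (vertical axis, edgeR) of ribosomal protein genes and 4 other lists (symbols, with the number of genes tested), with all genes tested as grey bars, in 6 states (horizontal axis). In S1pr1+ the ribosomal protein genes are at 0.20 and the biogenesis genes at -0.27.

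Between the genotypes, with 1 library each, no test is possible, and a difference between the libraries cannot be told apart from one between genotypes. Over all barcodes ribosomal protein genes took 22.5% of UMIs in WT and 22.6% in Cgas KO (ratio 1.004, 95% interval 1.003 to 1.004). Without the barcodes under a 5% share, an alternative chosen after the data were seen, the ratio was 0.996. By state the ratio ran from 0.985 (0.984 to 0.987) in cycling to 1.025 (1.022 to 1.028) in the Cd8 lineage. In Foxp3+, the regulatory T cell state that the study title names, it was 0.996 (0.992 to 0.99999). By the median barcode the Foxp3+ ratio was 1.006, and without barcodes under a 5% share it was 1.0002. Its direction therefore depended on the measure.

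Single members departed further than their sum. Of the 84 members with at least 100 UMIs, 4 lay above WT by 1.2-fold or more in Cgas KO, against 6.07% of 13266 genes, and none was lower by that size, against 5.83%. The count is therefore no higher than the background. Rps29 was at 2742 (WT) and 3428 (Cgas KO) CPM, a ratio of 1.25 (1.24 to 1.26). Rps21 was at 1705 (WT) and 2129.9 (Cgas KO) CPM, a ratio of 1.25 (1.24 to 1.26). Rpl38 was at 1188 (WT) and 1484 (Cgas KO) CPM, a ratio of 1.25 (1.24 to 1.26). Rps28 was at 1932 (WT) and 2398 (Cgas KO) CPM, a ratio of 1.24 (1.23 to 1.25). Rpl38 is a large subunit protein known for its part in translating selected mRNAs of body patterning, and the other 3 belong to the small subunit.

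These 4 ratios hardly varied between states. They ran from 1.21 to 1.33 in all 28 combinations of gene and state, and each stood above 1.2. In Foxp3+ barcodes Rps29 was at 2919.8 (WT) and 3591 (Cgas KO) CPM and Rpl38 at 1387 (WT) and 1735 (Cgas KO) CPM, with ratios of 1.23 and 1.25. In free RNA, the UMIs of barcodes with 20 to 199 UMIs, the same genes were below 1, as were all 83 members measured there, with ratios of 0.822 for Rps29, 0.851 for Rps21, 0.913 for Rpl38 and 0.891 for Rps28. There 64 of 83 members were at least 1.2-fold lower and none higher, against 11.8% and 22.2% of all genes. The median member was at a log2 ratio of -0.32 in free RNA, below each of these 4 genes. The summed ribosomal protein share of free RNA was 14.7% in WT and 11.4% in Cgas KO.

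**Figure D4:**
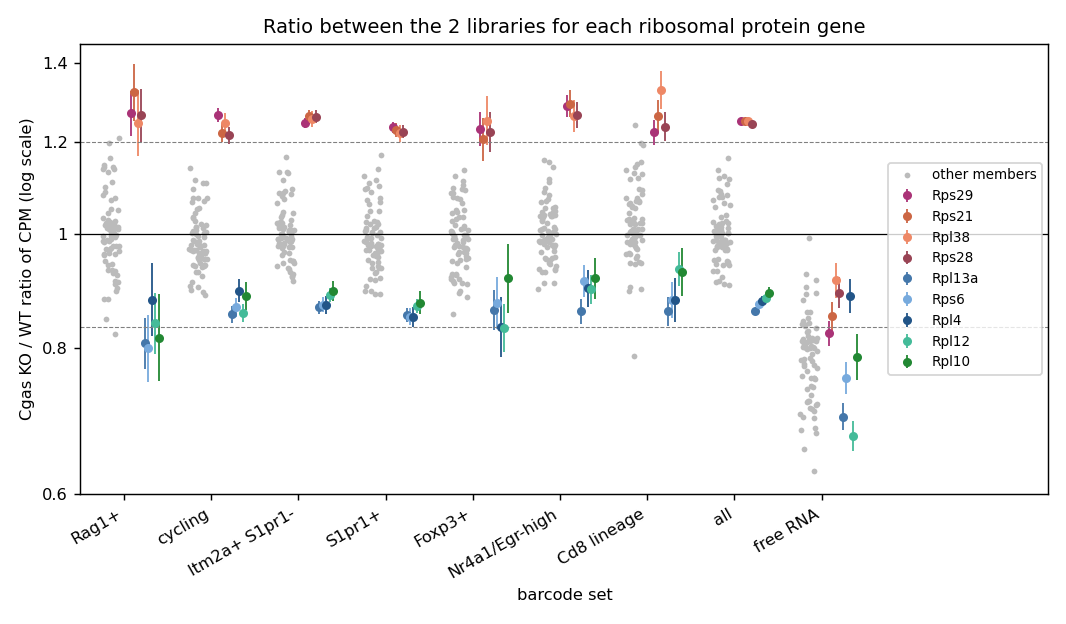
Ratio of Cgas KO to WT CPM (vertical axis, log scale) for each ribosomal protein gene in each barcode set (horizontal axis). Grey points are single genes, coloured points with 95% counting intervals the 4 highest and 5 lowest genes over all barcodes, and dashed lines a 1.2-fold difference; Rps29, Rps21, Rpl38 and Rps28 lie above the upper line in each of the 7 states, and below 1 in free RNA like all members there.

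The next members in order were Rpl37, at a ratio of 1.16 (1.15 to 1.17), Rpl36 at 1.14, Rpl37a at 1.12 and Rpl39 at 1.12. All of these, like the first 4, encode short proteins. Members were not sorted by length, so short ones with lower ratios were not counted. At the other end Rpl13a was at 2317 (WT) and 1989.9 (Cgas KO) CPM, a ratio of 0.859 (0.853 to 0.865). Rps6 was at 1556 (WT) and 1356 (Cgas KO) CPM, a ratio of 0.872 (0.864 to 0.879). Rpl4 was at 1115 (WT) and 976 (Cgas KO) CPM, a ratio of 0.876 (0.867 to 0.885). Rpl12 was at 1864 (WT) and 1644 (Cgas KO) CPM, a ratio of 0.882 (0.875 to 0.889). Rpl10 was at 831 (WT) and 741 (Cgas KO) CPM, a ratio of 0.891 (0.881 to 0.902). Rps6 is the small subunit protein phosphorylated by S6 kinase, Rpl13a has a role in silencing inflammatory mRNAs, Rpl4 lines the peptide tunnel, Rpl12 lies at the base of the stalk, and Rpl10 joins late in assembly. The files give no transcript lengths. A list of 30 genes for short proteins outside the ribosome, chosen after the values were seen, had a median ratio of 1.07 against 1.001 for all genes, with 22 at least 1.05-fold higher and 2 lower by that size, where 3657 and 3390 of all 13266 genes were. The 2 lower ones of the list were Tmsb4x at 0.906 and Dynll1 at 0.913. Many others of the list belong to the mitochondrial respiratory chain, such as Ndufb1 and Cox7c. The list therefore does not set short length apart from that trait. The part of transcript length in these ratios was not tested.

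Departures in 1 state were few. Rps27l had 451 UMIs in WT and 288 in Cgas KO barcodes of the Cd8 lineage, a ratio of 0.786 (0.676 to 0.913), and was at 0.989 (0.955 to 1.03) over all barcodes. It was the only member lower by 1.2-fold there, against 8.55% of genes, while 5 of 83 members were higher, against 8.47%. The fifth was Rps19bp1, at 138 and 139 UMIs and a ratio of 1.24 (0.972 to 1.58), an interval that includes no difference. In Rag1+ barcodes 5 of 82 members were higher, against 12.0% of genes, and 4 were lower, against 11.9%. The fifth higher one was Rpl7l1, at 112 and 102 UMIs and a ratio of 1.21 (0.916 to 1.60). The lower ones were Rps6 at 0.799 (0.748 to 0.853), Rpl13a at 0.806 (0.767 to 0.848), Rpl10 at 0.816 (0.748 to 0.889) and Rpl5, the partner of Rpl11, at 0.822 (0.760 to 0.888). In Foxp3+ barcodes 4 of 82 were higher, against 10.8%, and 2 were lower, against 11.2%: Rpl12 at 0.831 (0.793 to 0.871) and Rpl4 at 0.833 (0.785 to 0.884). Rpl5, Rps19bp1 and Rpl7l1 are named here after their values were seen.

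In the 4 other states the high members Rps29, Rps21, Rpl38 and Rps28 were the only ones of 83 past 1.2-fold in either direction. The share of all genes that was higher or lower by that size was 6.58% and 6.57% in cycling, 5.94% and 5.74% in S1pr1+, 6.69% and 7.96% in Nr4a1/Egr-high, and 6.02% and 5.40% in Itm2a+ S1pr1-. In no state was the members' share of higher or lower calls above the background.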

How the data were processed

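The deposited UMI counts per gene and barcode were unfiltered matrices made by the authors; per the file headers, Cell Ranger 8.0.1 wrote them. The submitters' processing notes list mm10, Seurat 5.1.0 and an older Cell Ranger (7.0), and the conflict could not be resolved. Per the labels' protocols a 3′ kit was used, which reads transcript ends, so counts are not scaled by length. Barcodes with at least 2000 UMIs, 500 genes and at most 10% mitochondrial UMIs were kept, without a doublet caller. They were gated on raw UMIs in this order: cycling (at least 4 of 24 genes), Rag1, Foxp3, Nr4a1 with Egr1, Egr2 and Egr3 (90th percentile), Cd8 lineage, S1pr1, Itm2a. Sums per state and library were tested with edgeR 4.0.16 (TMM, filterByExpr, state and library as terms; R 4.3.3), after a check on simulated data, with DESeq2 1.42.0 as an alternative. The library term pairs the sums because states of 1 library come from the same cells' preparation. Genotypes were compared by CPM ratios with exact conditional 95% intervals. The beta chains come from the deposited contig tables (UMI and read counts by the authors). Named genes were the 3 highest and 3 lowest called members per contrast, the 5 highest and 5 lowest by genotype ratio, the 5 most and 5 least variable, and paralog pairs; some of these are not reported here. The members, lists and tests were chosen with earlier results of these data known. Python 3.11.15 was used.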

Additional observations from a re-analysis of the deposited data

Results flagged for a closer look

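Symbols containing -ps, which the rule left out as pseudogenes, carried counts in both libraries. Rpl9-ps6 held 249210 UMIs in WT and 246287 in Cgas KO, which is 447.5 and 446.8 per 100 UMIs of Rpl9 itself. Rpl10-ps3 held 11512 and 10963 UMIs, and per 100 Rpl10 UMIs it ran from 13.2 in Foxp3+ barcodes of WT to 26.2 in cycling barcodes of Cgas KO. Rps18-ps6 held 1176 and 1085 UMIs, and Rps18-ps4 held 27 and 13. Reads of a processed copy and its parent gene can be exchanged in counting, so the levels of Rpl9, Rpl10 and Rps18 are uncertain. With these symbols added as further members, the members at least 1.2-fold higher in Cgas KO were still 4. Their UMIs were not merged with those of the parent genes, so this count does not address the exchange.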

How the results depend on the processing

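The median log2 fold changes of members against Itm2a+ S1pr1- kept their sign under every alternative run, but not their size, and the count of lower members in Nr4a1/Egr-high went from 43 to 0 without the library term; the cause was not tested. No count could be made from 1 library alone, for lack of residual degrees of freedom, so without each library only medians were recomputed: they ran from -0.46 to -0.46 in Rag1+, -0.071 to -0.045 in cycling, 0.19 to 0.22 in S1pr1+ and -0.17 to -0.16 in the Cd8 lineage. Without the library term (no replicate block) 4 members were higher and 19 lower in cycling, 45 and 2 in S1pr1+, 3 lower in Foxp3+, 0 lower in Nr4a1/Egr-high and 37 lower in the Cd8 lineage. Without TMM factors the medians were -0.35 in Rag1+, -0.13 in cycling, 0.11 in S1pr1+, 0.087 in Foxp3+, -0.095 in Nr4a1/Egr-high and -0.15 in the Cd8 lineage, with 6 higher in cycling, 9 lower in S1pr1+ and in Foxp3+, and 65 lower in Nr4a1/Egr-high. With DESeq2 the medians were -0.45 in Rag1+, -0.051 in cycling and -0.075 in Nr4a1/Egr-high, and 3 were lower in Foxp3+. Scaling on other genes gave -0.48 in Rag1+ and -0.057 in cycling. With no filter on low counts the medians were -0.54 in Rag1+, 0.11 in Foxp3+, -0.10 in Nr4a1/Egr-high (65 lower) and -0.20 in the Cd8 lineage. Gates read after thinning to 2000 UMIs gave -0.68 in Rag1+, -0.21 in cycling (4 higher), 0.15 in S1pr1+ (8 lower), 0.10 in Foxp3+ (9 lower) and -0.083 in Nr4a1/Egr-high. Barcodes of at least 4000 UMIs gave -0.27 in Rag1+, -0.11 in cycling (6 higher), -0.074 in Nr4a1/Egr-high (14 lower), -0.14 in the Cd8 lineage and 1 lower in Foxp3+. Barcodes with exactly 1 beta chain gave -0.63 in Rag1+, 0.23 in S1pr1+, 0.21 in Foxp3+, -0.19 in the Cd8 lineage and 24 lower in Nr4a1/Egr-high, and a genotype ratio of the share of 1.001. That ratio was 0.996 without barcodes under a 5% share. Single genes turned sign in 10 cases: in S1pr1+ without TMM factors Rps9 (-0.0062), Rplp1 (-0.027), Rps4x (-0.00051) and Rplp0 (-0.0061), and with thinned gates Rplp1 in S1pr1+ (-0.024), Rps6 in Foxp3+ (-0.029), and in cycling Rps2 (-0.056), Rps6 (-0.019), Rpl41 (-0.011) and Rpl36al (-0.0095). For the named genes between states, 2351 values under an alternative were unchanged, 241 lost their call, 62 gained one and 156 without a test moved. Unchanged means that a gene stayed called or stayed uncalled, or that a value without a test lay within the SE of the main value. Between genotypes 317 values of these genes stayed and 19 moved. Counting error limits the genotype ratios of sparse members within a state, and with 1 library per genotype no ratio has a replicate.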

Other observations

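Lists of genes around translation that the report does not describe are given here with the share of all genes called in the same state. Of 28 initiation factors, edgeR called 14 higher and 5 lower in cycling barcodes (median log2 fold change 0.06, 26.8% and 29.2% of all genes), 5 higher and 13 lower in S1pr1+ (median -0.05, 21.1% and 20%), and 2 higher and 18 lower in Rag1+ (median -0.23, 16.6% and 17.9%). Of 14 genes that control ribosomal protein mRNAs or belong to the mTOR pathway, 5 were higher and 1 lower in S1pr1+ (median 0.04), and 2 higher and 4 lower in Rag1+ (median -0.02), with the same background.

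Of 8 tested genes of p53 and ribosome stress, a pathway in which Rps27l is also known, 5 were lower and none higher in cycling barcodes by edgeR, by DESeq2 and at an unadjusted p under 0.05, in a state where 29.2% of all genes were lower and 26.8% higher. Rps27l rose there.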
